A study of Mus musculus with 6 samples.

Results

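The insulin-like growth factor (IGF) system was examined in a mouse myoblast model of myotonic dystrophy type 1 (DM1) through 10 genes that were chosen by name: the ligands Igf1 and Igf2, the receptors Igf1r and Igf2r, and the IGF binding proteins Igfbp2, Igfbp3, Igfbp4, Igfbp5, Igfbp6, and Igfbp7. These were 10 of the 55421 genes in the count table, and all 10 passed the filter on low counts. C2C12, an established mouse myoblast line, had been stably transfected with a GFP plasmid that carries either 5 CTG repeats (C2C12-CUG5, the normal group) or 200 CTG repeats (C2C12-CUG200, the DM1 group), and both lines had gone through G418 selection. In both groups, confluent cells were switched to a low horse serum medium with added insulin, and total RNA was sequenced at differentiation day 4 in 3 libraries per group. The study calls the libraries biological replicates but does not say whether they came from separate transfections, so the p-values measure the spread between these libraries. The transcript of the GFP plasmid was not analysed here.

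IGF1 and IGF2 are secreted peptides that bind the tyrosine kinase receptor IGF1R, which signals through insulin receptor substrates, PI3 kinase, and Akt. IGF2R, the cation-independent mannose 6-phosphate receptor, has no kinase and carries IGF2 to lysosomes for degradation. The binding proteins hold IGFs outside the cell and, depending on the setting, limit or prolong their action, and proteases such as PAPP-A release the ligands by cleaving them. In skeletal muscle, IGF signaling is known for promoting myoblast differentiation and fiber growth, and IGFBP5 is a binding protein that differentiating myoblasts make in large amounts.

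The library totals lay between 61707889 and 80957325 counts, where 1 count stood for 75 aligned bases. The floor used here, 3 counts, was worth between 0.0371 and 0.0486 CPM (counts scaled to the library size). The commonest count among 1 to 20 was 4, above this floor. The read length is not given in the sources used here, so counts are not numbers of sequenced reads. The share of counts in mitochondrial genes was between 8.90% and 13.5%, and it was lowest in DM1 replicate 3 and normal replicate 1. All 10 muscle markers examined passed the filter on low counts, which alone does not identify a cell type. In edgeR 8 of them fell in the DM1 group while none rose, beside 8.73% of all tested genes that were called lower. On log2(TPM + 1) with limma 5 of the 10 fell and none rose. Their summed level was between 8745 and 10288 TPM (the StringTie level, scaled for transcript length and library size) in the normal group and between 4509 and 6714 TPM in the DM1 group. By edgeR, actin alpha 1 (Acta1) fell by 0.91 on the log2 scale (adjusted p = 0.00359) and desmin (Des) by 0.43 (adjusted p = 0.0233). Troponin T3 (Tnnt3) fell by 0.37 on the log2 scale (adjusted p = 0.0207), and the fusion gene Mymk had a log2 fold change of -0.55 (adjusted p = 0.304). Mymx, its partner in myoblast fusion, lay the other way, at 59.9 ± 1.37 CPM in the normal group and 70.1 ± 3.13 CPM in the DM1 group with no overlap (log2 fold change 0.23, adjusted p = 0.0732). These values stand beside every IGF result below. Bulk RNA cannot tell fewer differentiated cells from less RNA per cell, and the part of either in the IGF results was not tested.

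Igfbp5 and Igf2r were the members that fell, and the bases before their annotated starts are shown here so that the letters can be read next to their values. They were taken from RefSeq (GRCm38.p6), each in the direction of its gene, with bases inside annotated exons removed. Capitals mark CANNTG, the E-box letters that myogenic factors of the MyoD family and many other factors can bind. The Igfbp5 stretch is chr1:72874885-72875115 on the minus strand (231 bases), and the Igf2r stretch is chr17:12769707-12769956 on the minus strand (250 bases). The window of Igf1, the member that rose, lay inside an annotated exon and is not shown.
Igfbp5: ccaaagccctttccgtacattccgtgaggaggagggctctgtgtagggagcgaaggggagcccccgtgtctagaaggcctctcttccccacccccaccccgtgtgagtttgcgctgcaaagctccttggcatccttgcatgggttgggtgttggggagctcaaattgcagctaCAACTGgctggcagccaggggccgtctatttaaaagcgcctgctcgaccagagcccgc
Igf2r: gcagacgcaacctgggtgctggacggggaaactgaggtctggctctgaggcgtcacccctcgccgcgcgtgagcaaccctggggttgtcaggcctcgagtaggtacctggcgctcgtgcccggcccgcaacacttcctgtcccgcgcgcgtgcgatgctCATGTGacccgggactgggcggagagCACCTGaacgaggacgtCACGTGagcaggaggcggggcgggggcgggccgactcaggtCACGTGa
Every member was matched by its symbol to the RefSeq windows, with 14 windows for the 10 genes. CANNTG reads the same on both strands, and 66.2% of 32851 RefSeq windows of 250 bases held it, with a median of 1 site. The Igfbp5 stretch held 1 site, which reads CAACTG. The Igf2r stretch held 4 sites, and the last 2 of them read CACGTG, a form of CANNTG that was found in 6.02% of all windows. The windows of 8 of the 10 members held CANNTG. Igf2, Igfbp3, Igfbp4, and Igfbp6, which did not pass the test described below, were among these members, and so was Igf1 with its exonic window. This count is per gene, and Igf2 and Igfbp2 had more than 1 window, so it is not comparable with the 66.2% per window. CACGTG was also in a window of Igfbp2. CAGCTG, another form, was found in 13.0% of all windows and, among the members, in that of Igf1 alone. A match is a description of letters, and binding was not measured.

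Of the 10 genes, 3 passed the test at an adjusted p under 0.05 (edgeR's quasi-likelihood test, Benjamini-Hochberg adjustment over 19005 genes): Igf1 rose and Igf2r and Igfbp5 fell in the DM1 group. Over all tested genes 3016 passed (15.9%), with 1356 higher (7.13%) and 1660 lower (8.73%). On log2(TPM + 1) with limma, the same comparison gave 352 higher and 673 lower genes (5.39% in all). Past the study's cutoffs, which add a log2 fold change beyond 1 in either direction, only Igfbp5 remained among the 10, where 0.816% of the tested genes were called as lower. At an unadjusted p under 0.05 there were 5 members, beside 30.7% of all tested genes. The number that passed was 2 without normal replicate 1, normal replicate 3, or DM1 replicate 2. With DESeq2 it was 5, where 23.1% of 16182 genes passed. In CPM the groups did not overlap for 7 members, beside 37.2% of all tested genes. Of the 7, 3 were higher (Igf1, Igf1r, and Igfbp7) and 4 lower (Igf2r, Igfbp2, Igfbp3, and Igfbp5) in the DM1 group. In TPM the groups of Igf1r and Igfbp3 did overlap. The median log2 fold change of the 10 was -0.02, against 0.02 over all tested genes.

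**Figure D1:**
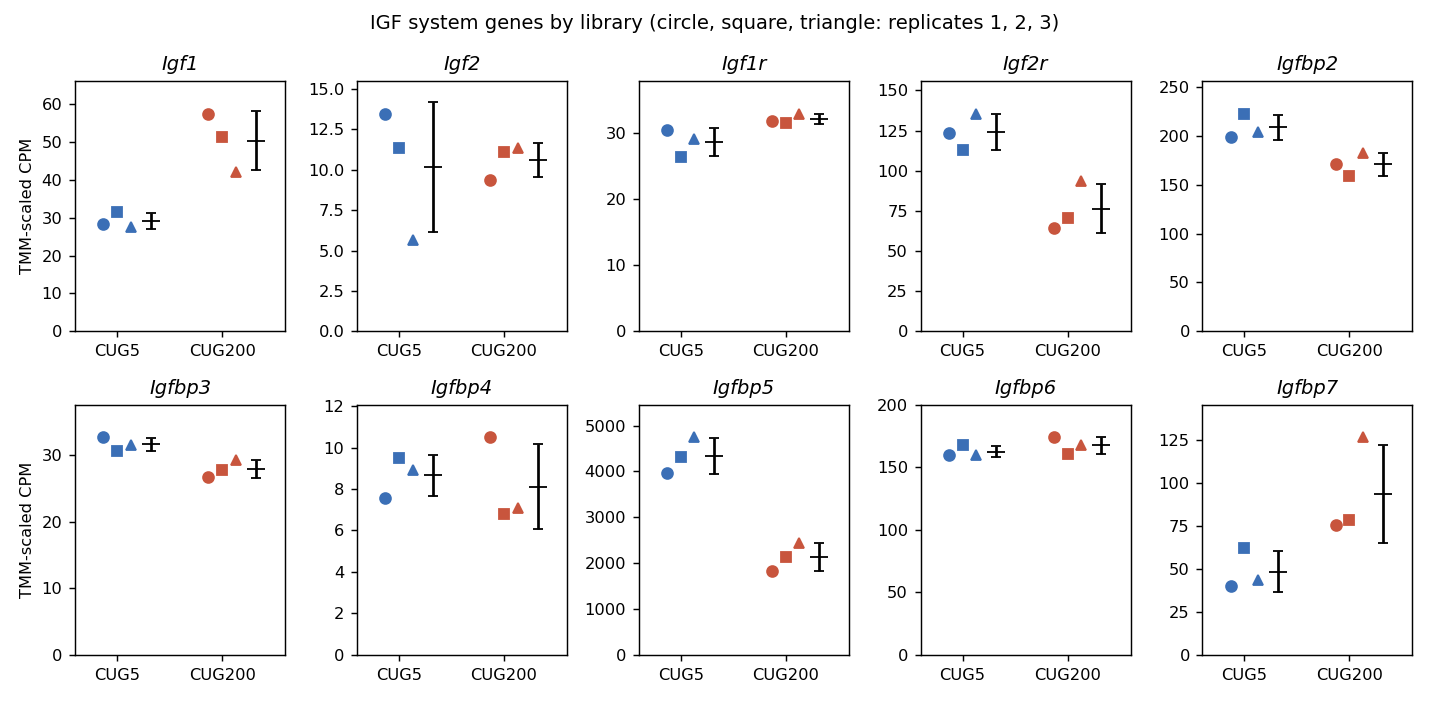
Each panel plots 1 gene in TMM-scaled CPM (vertical axis, starting at 0) in the normal (CUG5) and DM1 (CUG200) groups; symbols are the 3 replicates and the bars give the mean ± SD. Igf1 sits higher in all 3 DM1 libraries, Igfbp5 and Igf2r sit lower, and Igf2 overlaps.

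Igf1 (ENSMUSG00000020053, chr10:87858265-87937042, plus strand, GRCm38) encodes the ligand that promotes muscle growth. Its level was 28.3, 31.5, and 27.6 CPM in the normal libraries and 57.5, 51.5, and 42.1 CPM in the DM1 libraries. All 3 DM1 libraries were above all 3 normal libraries, and DM1 replicate 3 was the nearest to them. The mean rose from 29.1 ± 2.09 to 50.4 ± 7.76 CPM (SD, n = 3 per group), a 1.73-fold increase with a log2 fold change of 0.79 (SE 0.124, 95% interval 0.51 to 1.07) and adjusted p = 0.00569 in edgeR. The call held when each of the 6 libraries was left out in turn, with log2 fold changes between 0.70 and 0.90. Igf1os, a transcript annotated on the opposite strand, had 0 counts in 5 libraries and 19 counts in DM1 replicate 3.

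Igf2 (ENSMUSG00000048583, chr7:142650766-142666816, minus strand), the imprinted fetal ligand that differentiating myoblasts are known to secrete, did not pass the test. It was measured at 13.5, 11.4, and 5.65 CPM in the normal group and at 9.37, 11.1, and 11.3 CPM in the DM1 group. The groups overlapped, and normal replicate 3 was the lowest of the 6. The log2 fold change was 0.06 with an interval from -0.61 to 0.73 (adjusted p = 0.918 in edgeR), so that a moderate change in either direction lies inside the interval. It was -0.22 without normal replicate 3, the lowest library, and 0.32 without normal replicate 1, and it was -0.00056 on log2(TPM + 1). Gm49394, which shares exonic bases with Igf2 on the same strand, had 7 counts in normal replicate 2 and 0 counts in the others, and the microRNA gene Mir483 within Igf2 was at 0. Igf2os, on the opposite strand, was higher in all 3 DM1 libraries (58, 36, and 50 counts in the normal and 69, 91, and 83 counts in the DM1 libraries, log2 fold change 0.79), which did not pass (adjusted p = 0.0878 in edgeR).

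The ratio of the ligands was taken per transcript length. Igf1 TPM over Igf2 TPM was 1.55, 1.61, and 2.97 in the normal libraries and 4.38, 3.65, and 2.81 in the DM1 libraries. Igf1 transcripts were thus the more abundant of the ligands in all 6 libraries, and the ratios of the groups overlapped, since normal replicate 3 was above DM1 replicate 3.

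Igf1r (ENSMUSG00000005533, chr7:67952827-68233668, plus strand), the signaling receptor of both ligands, had 30.5, 26.4, and 29.1 CPM in the normal group and 31.8, 31.6, and 33.0 CPM in the DM1 group. All 3 DM1 libraries were above the normal ones in CPM, by a small margin. In TPM the groups overlapped, at 5.83, 4.65, and 4.78 in the normal group and 4.91, 4.89, and 6.02 in the DM1 group. The log2 fold change of 0.16 had an interval from -0.04 to 0.37 and did not pass (adjusted p = 0.264 in edgeR).

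Igf2r (ENSMUSG00000023830, chr17:12682406-12769664, minus strand), the receptor that clears IGF2 and sorts lysosomal enzymes, fell. Its level was 124, 113, and 135 CPM in the normal libraries and 64.6, 70.6, and 93.7 CPM in the DM1 libraries. The groups did not overlap, and DM1 replicate 3 was again the closest to the normal group. The mean went from 124 ± 11.3 to 76.3 ± 15.4 CPM, a 1.62-fold decrease with a log2 fold change of -0.70 (SE 0.143, interval -1.03 to -0.38, adjusted p = 0.0145 in edgeR). The call was lost without normal replicate 1 (adjusted p = 0.0528), without normal replicate 3 (adjusted p = 0.0665), and without DM1 replicate 2 (adjusted p = 0.0639), and on the log2(TPM + 1) scale with limma (adjusted p = 0.0583). The log2 fold change stayed between -0.88 and -0.58 in all 6 fits with a library left out.

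Airn, the noncoding RNA that is transcribed antisense to Igf2r and is known for silencing its paternal allele, was measured at 29.9 ± 0.78 CPM in the normal group and 25.9 ± 2.33 CPM in the DM1 group. Its log2 fold change was -0.21 (adjusted p = 0.192 in edgeR). The strand setting of the counting is not given in the sources used here, and without it reads of Igf2r and Airn, or of Igf2 and Igf2os, cannot be told apart where the genes overlap. The ratio of Igf2r TPM to Igf1r TPM was 4.39, 4.73, and 5.28 in the normal libraries and 2.20, 2.58, and 3.19 in the DM1 libraries. These ratios did not overlap, and Igf2r stayed the more abundant receptor per transcript length in all 6 libraries.

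Igfbp5 (ENSMUSG00000026185, chr1:72857932-72874884, minus strand) had the largest change of the 3 genes that passed, and it was also the most abundant of the 10 per transcript length. It was counted at 3955, 4308, and 4743 CPM in the normal libraries and at 1821, 2127, and 2436 CPM in the DM1 libraries. The highest DM1 library was well below the lowest normal library. The mean fell from 4335 ± 395 to 2128 ± 307 CPM, which is 2.04-fold lower, with a log2 fold change of -1.03 (SE 0.125, interval -1.31 to -0.74) and adjusted p = 0.00254 in edgeR. The transcript took 0.434% of all scaled counts in the normal group and 0.213% in the DM1 group. The test was passed in all 6 fits that left out a library (adjusted p between 0.00166 and 0.0181), and the log2 fold change was beyond the cutoff of -1 in 4 of the 6. It fell short of the cutoff without normal replicate 3 (-0.95) and without DM1 replicate 1 (-0.91).

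Igfbp2 (ENSMUSG00000039323, chr1:72824503-72852474, plus strand) is the neighbor of Igfbp5 on chromosome 1, on the opposite strand. It had 199, 223, and 204 CPM in the normal group and 171, 159, and 183 CPM in the DM1 group. The groups did not overlap and the log2 fold change was -0.29 (SE 0.0895, interval -0.49 to -0.09), which missed the threshold (adjusted p = 0.0604 in edgeR). It was passed with DESeq2 (adjusted p = 0.0315) and without DM1 replicate 3 (adjusted p = 0.0252).

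Igfbp7 (ENSMUSG00000036256, chr5:77349240-77408041, minus strand) encodes a secreted matrix protein that binds IGFs more weakly than the other binding proteins. Its level was 39.9, 61.9, and 43.3 CPM in the normal libraries and 75.3, 78.4, and 126 CPM in the DM1 libraries. All DM1 libraries were above the normal ones, and DM1 replicate 3 stood far above the other two. The log2 fold change of 0.95 (SE 0.256, interval 0.33 to 1.56) narrowly missed the threshold (adjusted p = 0.0525 in edgeR), while DESeq2 called it (adjusted p = 6.64e-05). Without DM1 replicate 3 the log2 fold change was 0.67 (adjusted p = 0.0641), and without normal replicate 2 it was 1.16 and passed (adjusted p = 0.0406). Polr2b, a gene on the opposite strand that overlaps Igfbp7, had 187 ± 1.28 CPM in the normal group and 190.1 ± 12.9 CPM in the DM1 group.

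Igfbp3 (ENSMUSG00000020427, chr11:7206086-7213923, minus strand), the main IGF carrier of the circulation, was at 32.7, 30.7, and 31.6 CPM in the normal group and at 26.7, 27.8, and 29.4 CPM in the DM1 group. The groups did not overlap in CPM, although the log2 fold change of -0.18 (interval -0.38 to 0.01) did not pass (adjusted p = 0.193 in edgeR). In TPM they overlapped narrowly, with the lowest normal library at 20.997 and the highest DM1 library at 21.003. Igfbp6 (ENSMUSG00000023046, chr15:102144362-102149511, plus strand), which prefers IGF2 over IGF1, was at 160, 168, and 160 CPM in the normal group and at 174, 161, and 168 CPM in the DM1 group. The log2 fold change was 0.04 with an interval from -0.13 to 0.22 (adjusted p = 0.765 in edgeR), and this was the narrowest interval of the 10 genes. Igfbp4 (ENSMUSG00000017493, chr11:99041244-99054392, plus strand), a binding protein that PAPP-A cleaves, was at 7.58, 9.48, and 8.92 CPM in the normal group and at 10.5, 6.78, and 7.07 CPM in the DM1 group. Its groups overlapped, with a log2 fold change of -0.09 and an interval from -0.52 to 0.34 (adjusted p = 0.795 in edgeR). It was -0.31 without DM1 replicate 1, the highest library, and 0.021 without DM1 replicate 2. The sign of the Igfbp4 and Igfbp6 changes turned on the TPM scale, to 0.19 and -0.082 on log2(TPM + 1).

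**Figure D2:**
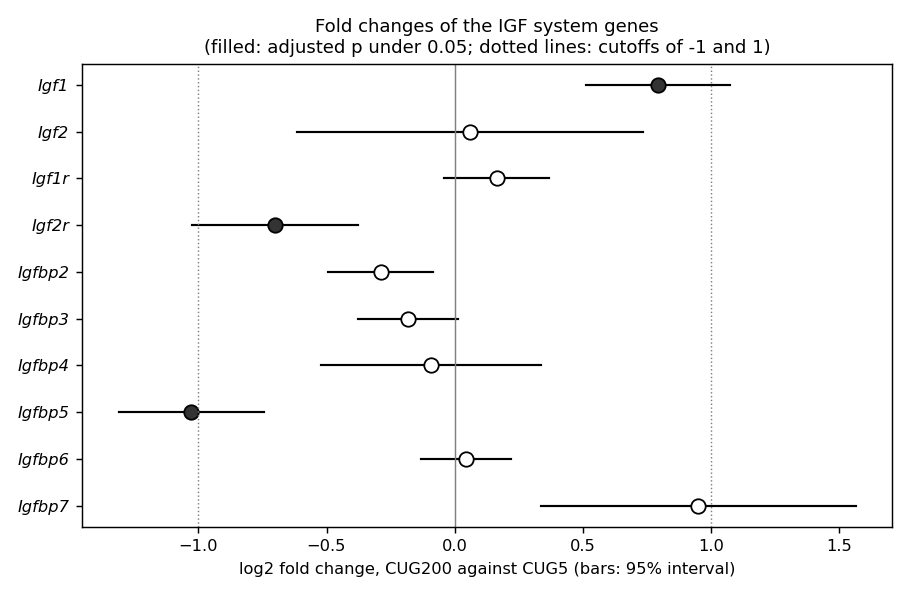
The horizontal axis is the log2 fold change of the DM1 group against the normal group for the 10 genes, with bars for the 95% interval, filled symbols at an adjusted p under 0.05, and dotted lines at the cutoffs of -1 and 1. Igf1 (0.79) lies to the right, Igf2r (-0.70) and Igfbp5 (-1.03) to the left, and the open symbol of Igfbp7 (0.95) has one of the widest intervals.

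Levels were compared between the genes in TPM, since counts also scale with transcript length. In the normal group the order was Igfbp5 (1210 ± 55.8 TPM), Igfbp2 (297 ± 22.1 TPM), Igfbp6 (246 ± 12.7 TPM), and Igfbp7 (70.5 ± 15.7 TPM), each separate from the next. Igf2r (24.3 ± 1.96 TPM) and Igfbp3 (22.1 ± 1.81 TPM) followed with ranges that overlapped, and Igf1 stood at 8.51 ± 1.41 TPM. Igf1r (5.09 ± 0.644 TPM), Igf2 (4.66 ± 2.04 TPM), and Igfbp4 (3.92 ± 0.125 TPM) came last, below Igf1, and overlapped in this order.

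In the DM1 group Igfbp5 was still first at 553 ± 136 TPM. Igfbp6 (232 ± 23.3 TPM) and Igfbp2 (223 ± 33.7 TPM) overlapped, and Igfbp7 came next at 129 ± 52.6 TPM. Igfbp3 (18.0 ± 2.75 TPM), Igf1 (15.6 ± 0.832 TPM), and Igf2r (14.2 ± 4.41 TPM) followed, below Igfbp7, and overlapped in this order. Igf1r (5.27 ± 0.646 TPM), Igfbp4 (4.69 ± 1.04 TPM), and Igf2 (4.43 ± 0.840 TPM) again came last with ranges that overlapped. Igf1, seventh and apart from Igf2r and Igfbp3 in the normal group, overlapped both in the DM1 group.

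**Figure D3:**
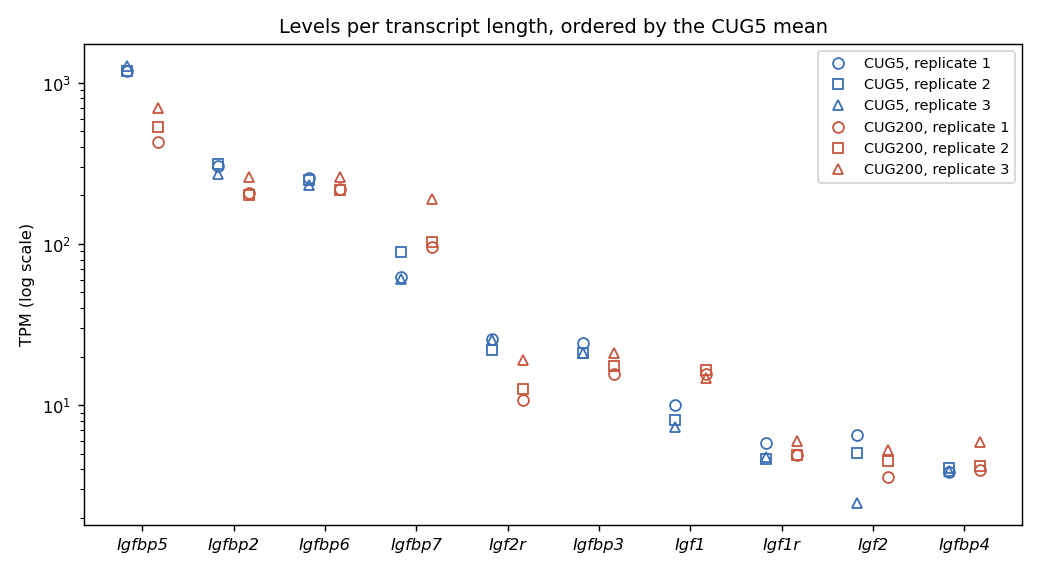
The vertical axis gives TPM on a log scale for the 10 genes, ordered along the horizontal axis by their mean in the normal group, with 1 symbol per library and replicate. Igfbp5 is highest in both groups, at 1210 and 553 TPM on average, and Igf1r, Igf2, and Igfbp4 are the lowest 3 by their means in both groups.

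The make-up of the binding protein transcripts differed between the groups. Their summed TPM was 1849 ± 18.5 in the normal group and 1161 ± 244 in the DM1 group. Igfbp5 made up 64.4%, 63.6%, and 68.4% of this sum in the normal libraries and 44.1%, 49.5%, and 48.6% in the DM1 libraries. The shares of the groups were apart by more than their own spread. Igfbp7 held 3.39%, 4.78%, and 3.26% of the sum in the normal group and 9.81%, 9.57%, and 13.2% in the DM1 group. Igfbp6 went from 14.1%, 13.4%, and 12.4% to 22.8%, 20.2%, and 18.1%, and Igfbp2 from 16.7%, 16.9%, and 14.6% to 21.3%, 18.7%, and 18.3%. Shares of a sum are tied to each other: the larger shares of Igfbp2 and Igfbp6 stand beside TPM levels that were not higher (297 and 223 TPM for Igfbp2, 246 and 232 TPM for Igfbp6). With 3 libraries per group, an exact test of a single share cannot go below p = 0.10, and none was run.

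**Figure D4:**
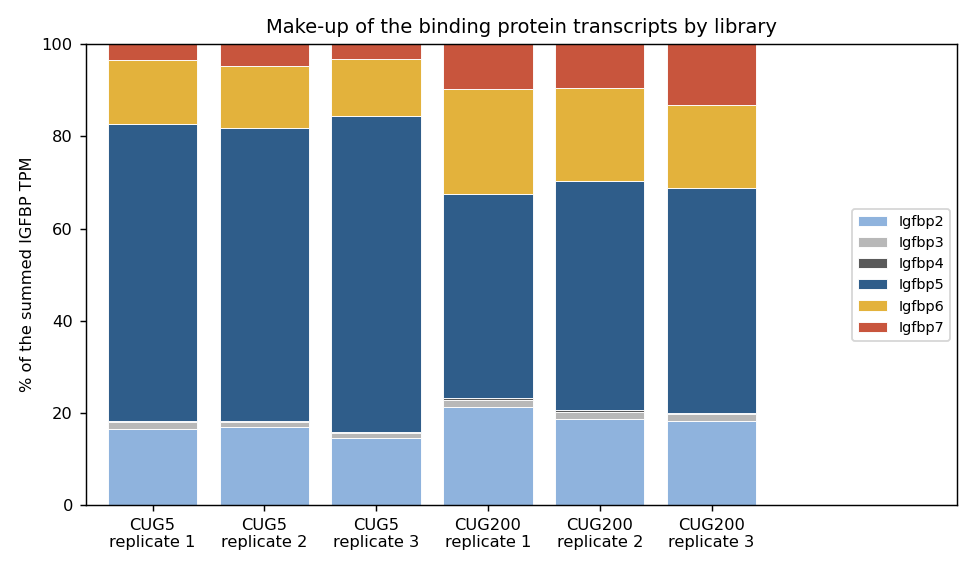
Each bar is 1 library, and its colored parts give the percentage of the summed TPM of the 6 binding proteins (vertical axis, 0 to 100%) in each of them. The Igfbp5 part covers 63.6% to 68.4% of the normal bars and 44.1% to 49.5% of the DM1 bars, and the Igfbp7 part at the top is wider in all 3 DM1 bars.

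Other genes of the pathway were taken from 5 lists with 51 genes, of which 46 were tested and 10 passed, 3 higher and 7 lower in the DM1 group, beside the 15.9% over all genes. Their median log2 fold change was -0.19, and 22 had an unadjusted p under 0.05, beside the 30.7% over all tested genes. The number that passed was 5 without normal replicate 1 or DM1 replicate 2, 4 without normal replicate 3, and on log2(TPM + 1) with limma 3. Igfbp1, Igfbpl1, Ins1, Insrr, and Adam28 did not pass the filter on low counts. Among the remaining relatives, the insulin receptor Insr, Ins2, and Igfals, 0 of 3 passed in edgeR or limma and 0 of 2 in DESeq2, and the number with an unadjusted p under 0.05 was 0 in edgeR, 2 in limma, and 1 in DESeq2. Insr, which can pair with IGF1R in hybrid receptors, was at 8.73 ± 1.73 TPM in the normal group and 6.12 ± 1.11 TPM in the DM1 group (log2 fold change of the counts -0.51, adjusted p = 0.368 in edgeR).

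Among the IGFBP proteases and their inhibitors, 3 of 11 tested genes rose and none fell in edgeR or DESeq2. On log2(TPM + 1) with limma 0 of them passed. Over all tested genes, 7.13% were called higher in edgeR and 15.9% in either direction. In either direction, 23.1% were called in DESeq2 and 5.39% in limma. The DESeq2 count is close to its share, so it says nothing particular about these genes. Pappa, whose product PAPP-A cleaves IGFBP4 and IGFBP5, was at 3.38, 3.39, and 3.32 CPM in the normal libraries and at 6.72, 6.72, and 10.9 CPM in the DM1 libraries. The groups were far apart, with a log2 fold change of 1.27 (SE 0.206, adjusted p = 0.00651 in edgeR). The transcript was nevertheless scarce, at 0.511 TPM in the normal group and 1.16 TPM in the DM1 group. Adam12, a metalloprotease of the muscle lineage that can cleave IGFBP3 and IGFBP5, rose from 11.6 ± 1.09 to 19.9 ± 3.41 CPM (log2 fold change 0.78, adjusted p = 0.0104). Htra1, a secreted serine protease that cleaves IGFBP5, rose from 88.0 ± 8.39 to 121.8 ± 10.02 CPM (log2 fold change 0.47, adjusted p = 0.0168). Pappa and Adam12 passed with any library left out, whereas Htra1 lost the call without normal replicate 2 (adjusted p = 0.0712) or normal replicate 3 (adjusted p = 0.0820).

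Of the 14 receptor adaptors, 3 fell and none rose in edgeR, beside 8.73% of all tested genes called lower. DESeq2 called 2 of them and limma on log2(TPM + 1) called 1, all lower. Over all tested genes, in either direction, edgeR called 15.9%, DESeq2 23.1%, and limma 5.39%. The DESeq2 count is below its share. Grb2, the adaptor toward Ras, had a log2 fold change of -0.42 (adjusted p = 0.0144), and the phosphatase Ptpn11 (SHP2) one of -0.36 (adjusted p = 0.0226). Grb10, an imprinted adaptor that restrains the insulin and IGF1 receptors, was at 1.38 ± 0.0283 CPM in the normal group and 0.747 ± 0.0871 CPM in the DM1 group (log2 fold change -0.89, adjusted p = 0.0397 in edgeR). The Grb10 call was lost in all 6 fits without a library (adjusted p between 0.0678 and 0.128) and with DESeq2 (adjusted p = 0.0615). It was also lost in edgeR with the replicate number as a block (adjusted p = 0.0714). On log2(TPM + 1) with limma the Grb10 and Grb2 calls were lost (adjusted p = 0.0976 and 0.0517). Grb2 and Ptpn11 each lost theirs without normal replicate 1, normal replicate 3, or DM1 replicate 2 (adjusted p between 0.0560 and 0.106). Irs1, the main substrate of the receptors, had a log2 fold change of 0.12 (adjusted p = 0.366).

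In the list of proteins that bind Igf2 RNA and of imprinting partners, 1 of 6 genes passed in edgeR, beside 15.9% of all tested genes. The count is close to that share, so it says nothing particular about the list. H19, the noncoding RNA next to Igf2 that is expressed from the other parental allele, was at 2107 ± 27.5 CPM in the normal group and 1738 ± 37.6 CPM in the DM1 group (log2 fold change -0.28, adjusted p = 0.0427 in edgeR). The groups did not overlap, but the call was lost in 5 of 6 fits without a library, the exception being without DM1 replicate 3. It was also lost on log2(TPM + 1) with limma (adjusted p = 0.103) and in edgeR with the replicate number as a block (adjusted p = 0.0579). Scaling by library sizes alone (adjusted p = 0.0513) and 2 other filters (adjusted p = 0.0871 and 0.0570) lost it as well. Per transcript length, H19 stood at 1611 TPM in the normal group beside 4.66 TPM for Igf2.

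Among 12 genes of PI3 kinase and Akt signaling, 3 fell and none rose in edgeR or DESeq2, and 2 fell on log2(TPM + 1) with limma. Over all tested genes, 8.73% were called lower in edgeR. The shares called in either direction were 15.9% in edgeR, 23.1% in DESeq2, and 5.39% in limma. The DESeq2 count is close to its share, so it says nothing particular about the list. Pik3r3, a regulatory subunit of PI3 kinase, was at 103, 109.6, and 108 CPM in the normal libraries and at 60.5, 52.1, and 46.3 CPM in the DM1 libraries. Its log2 fold change was -1.01 (SE 0.106, adjusted p = 0.00172 in edgeR). Akt1, the kinase that IGF signaling activates in most tissues, fell by 0.47 on the log2 scale (adjusted p = 0.00767), and Akt2, the isoform known for insulin action in muscle, by 0.49 (adjusted p = 0.0196). Pik3r3 and Akt1 passed with any library left out. Akt2 lost the call in 4 of the 6 fits (without normal replicate 1, 2, or 3 or without DM1 replicate 2, adjusted p between 0.0530 and 0.0945) and on log2(TPM + 1) with limma (adjusted p = 0.319).

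**Figure D5:**
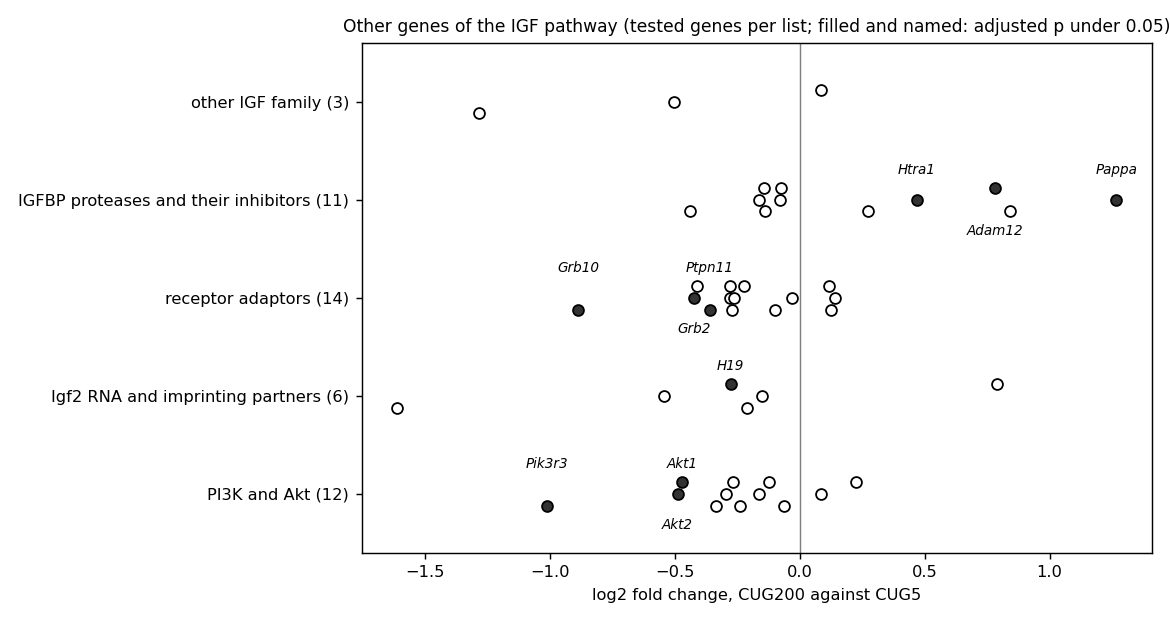
Each symbol is 1 tested gene of the 5 pathway lists, placed by its log2 fold change of the DM1 group against the normal group (horizontal axis), with filled and named symbols at an adjusted p under 0.05. The 3 named proteases lie to the right of 0, and the 3 named adaptors, Pik3r3, Akt1, and Akt2 to the left.

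The genes whose pattern over the 6 libraries was closest to that of Igfbp5 were Reep6, Ptprd, and Trp63, with root mean square differences of centered log2 CPM of 0.050, 0.053, and 0.066. Their log2 fold changes were -1.02, -1.02, and -1.02. Closest to Igf1 were Hacd4 (0.044), Hspb11 (0.046), and Gm10443 (0.052), with log2 fold changes of 0.81, 0.77, and 0.86. This measure describes likeness over 6 libraries of the same depth range and is no test.

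Markers of other cell types were read beside these results. Of 5 tested fibroblast markers 3 rose: collagen Col1a1 (log2 fold change 1.06, adjusted p = 0.000916), Lum (0.81, adjusted p = 0.0100), and Dcn (0.45, adjusted p = 0.0281), while Col3a1 had 0.20 (adjusted p = 0.197 in edgeR). Pdgfra had 0.31 (adjusted p = 0.115 in edgeR). Thy1, also on the list, had 4 counts in normal replicate 2 and 0 counts in the others, and was not tested. The 3 of 5 that rose stand beside 7.13% of all tested genes called higher, and on log2(TPM + 1) with limma 2 of the 5 rose. The summed level of the list was between 1500 and 1771 TPM in the normal group and between 1749 and 2115 TPM in the DM1 group, and myoblasts express several of them. The 5 adipocyte markers summed to at most 0.0632 TPM, with Adipoq, Fabp4, and Lep among the 4 at 0 in every library and Plin1 at 4 counts or fewer. Endothelial markers summed to between 3.47 and 4.37 TPM and between 1.40 and 2.43 TPM, most of it in Tek (log2 fold change -0.95, adjusted p = 0.0107), whereas the defining markers Pecam1 and Cdh5 had at most 26 and 9 counts and Vwf lay the other way without passing (log2 fold change 0.59, higher in all 3 DM1 libraries, adjusted p = 0.163). Macrophage markers summed to between 11.8 and 15.5 TPM and between 13.4 and 18.1 TPM, with Cd14 (adjusted p = 0.0912) and Cd68 (adjusted p = 0.844) the most abundant, Csf1r (adjusted p = 0.751) at 45 counts or fewer, and Ptprc at 0 in every library. The part of the fibroblast genes in the changes of Igf1, Igfbp5, and Igfbp7 was not tested.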

How the data were processed

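Total RNA libraries of 3 CUG5 and 3 CUG200 samples were used, grouped by their labels. The authors trimmed reads with Trim Galore, aligned them to GRCm38 with HISAT2, and quantified genes with StringTie. Versions and strand setting are not given in the sources used here. The authors deposited raw counts per gene for all libraries and, per library, coverage (signal), FPKM, and TPM. The deposited counts are coverage times length over 75 bases (99.2% of nonzero values of single-transcript genes within 1 count); the commonest low count was 4. Of 55421 genes, 55154 are in GENCODE M21 and 54858 have the same span there.

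Genes were filtered with filterByExpr (minimum count 10), which left 19005, scaled by TMM (factors 0.940 to 1.05), and tested with edgeR 4.0.16 (robust quasi-likelihood, no covariate, Benjamini-Hochberg, threshold 0.05) in R 4.3.3; the code was tested on simulated data. Intervals of 95% come from the SE and the fit's degrees of freedom. No libraries agreed within sampling noise (chi-square per degree of freedom 10.9 to 40.9). Alternatives used DESeq2 1.42.0, limma 3.58.1 (pseudocounts 1 and 0.1), other scalings and filters, counts divided by 4, a replicate block, and each library left out. Another alternative added overlapping genes on the same strand to a member. It changed the counts of Igf2 alone, and antisense genes such as Airn were not added. The deposited FPKM served as the alternative for levels.

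Members and lists were chosen with earlier results of these data known. Named were all members, list genes that passed (or, by name alone, failed the filter), the 4 markers of highest TPM per cell type, and the 3 genes closest in pattern to Igfbp5 and Igf1. Insr, Ins2, Igfals, Irs1, Mymx, Pdgfra, Thy1, and the genes overlapping a member were named after their values were seen. A gene of the pathway lists is not reported here and is left out of their counts. Floors cover counting error only and take each count as independent, although the commonest low count was 4.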

Additional observations from a re-analysis of the deposited data

How the results depend on the processing

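Of 230 gene fold changes recomputed under other settings, 196 kept their direction and side of the threshold, 23 lost the call, 6 gained it, and 5 changed sign; with 1 library left out, the numbers were 90, 26, 2, and 2 of 120. Igf1 and Igfbp5 kept direction and call under all of these. The sum of overlapping genes, 1 of the other settings, left the counts of every member except Igf2 unchanged. It therefore could not test the overlap of Igf2r with Airn. On log2(TPM + 1) and log2(TPM + 0.1), Igf2r was at -0.77 (adjusted p = 0.0583) and -0.81 (adjusted p = 0.0561, limma), Igfbp4 at 0.19 and 0.23, Igfbp6 at -0.0823 and -0.0827, and Igf2 at -0.00056 on the first; the median of all genes moved from 0.02 to -0.06 and -0.09. TPM per CPM of Igfbp4 varied 2.20-fold over the libraries, against 1.23-fold to 1.38-fold for the other members. On these scales 1 member was called lower, the lists had 3 called genes (0 higher, 3 lower), and all genes 1025 (352 higher, 673 lower) and 1050 (354 higher, 696 lower). The cause was not tested. DESeq2 called 5 members, with Igfbp2 at -0.29 (adjusted p = 0.0315) and Igfbp7 at 0.95 (adjusted p = 6.64e-05). Igfbp7 also passed without mitochondrial genes (0.97, adjusted p = 0.0457), with at least 10 counts in every library (0.96), without robust estimation (0.95, adjusted p = 0.0331), and with counts divided by 4 (0.96), so that under DESeq2 and each of these 4 settings 2 members were called higher.

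With each library left out (normal replicates 1 and 3 and DM1 replicate 2 gave the lowest counts of calls), log2 fold changes ranged from -0.22 to 0.32 for Igf2, -0.88 to -0.58 for Igf2r, -0.34 to -0.24 for Igfbp2, -0.31 to 0.021 for Igfbp4, and 0.67 to 1.16 for Igfbp7. Between 2 and 4 members were called, 1 to 2 higher and 1 to 3 lower; in the lists 4 to 12, 2 to 5 higher and 2 to 9 lower; and over all genes 1028 to 3789, 543 to 1678 higher and 485 to 2111 lower. Ranks by TPM ranged over 8 to 10 (Igf2), 8 to 9 (Igf1r), and 9 to 10 (Igfbp4) in the normal group and 6 to 7 (Igf1 and Igf2r) in the DM1 group.

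The groups share replicate numbers, and the deviations of same-numbered libraries correlated at 0.067, 0.022, and 0.026. For DM1 replicates 1 and 3 the same-numbered normal library was the closest, whereas DM1 replicate 2 was closer to normal replicate 3 (0.045). Correlations this weak cannot show whether the samples were paired, and the sources used here do not say. With the replicate number as a block, 3 members (1 higher, 2 lower), 2823 genes, and 8 list genes were called. Igf1 was at 0.78 (SE 0.106, against 0.124 without the block), Igf2r at -0.71 (SE 0.098, against 0.143), and Igfbp5 at -1.03 (SE 0.082, against 0.125). The calls of H19 and Grb10 were lost with this block (adjusted p = 0.0579 and 0.0714 in edgeR).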
